A study of Saccharomyces cerevisiae with 12 samples.

Results

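Late replicative ageing was examined as the change in DNA copy number between 24 h and 48 h in budding yeast mother cells, read from the sequenced genomic DNA of 4 genotypes. For every 25 kb window placed each 5 kb along the genome, the signal of the 48 h library was divided by that of the 24 h library of the same genotype. The signal is scaled so that the nuclear level of each library is alike, and a ratio above 1 is therefore a gain relative to the rest of the nuclear genome. This used 8 of the 12 libraries and all 2441 windows, 2423 of them nuclear and 18 mitochondrial. The log phase libraries served only to give the earlier change, 24 h over log phase, against which each late change was set. Windows were then sorted into changes that continued after 24 h, changes that had stopped, changes that reversed, and changes seen only late.

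The groups were spt3 mutant cells at 48 h and 24 h, rad52 mutant cells at 48 h and 24 h, sac3 mutant cells at 48 h and 24 h, and wild-type cells at 48 h and 24 h, with 1 library in each. All were diploids with the mother enrichment program (MEP), in which a Cre recombinase driven by the daughter-specific SCW11 promoter and switched on by estradiol inactivates loxP-flanked UBC9 and CDC20 in daughter cells, so that daughters stop dividing. The wild type carried this system too, and it served as the control. Cells were grown in glucose medium at 30 °C, biotin was put on the walls of the starting cells, and mothers were recovered from the aged cultures on streptavidin beads. According to the methods, estradiol was added later to the rad52 and sac3 cultures than to the spt3 and wild-type cultures, and each gene was removed with a TRP1 marker. No group had a replicate, so the 4 genotypes were used as 4 pairs and the spread between them is the only error available. In a bulk library, many copies in some cells and a few more copies in all cells cannot be told apart.

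As background, a mother cell keeps much of the extrachromosomal ribosomal DNA that forms when repeats of the rDNA array on chromosome XII recombine out as circles (ERCs), and each circle carries a replication origin and can multiply with every division. Rad52 is needed for the recombination that forms circles, Spt3 is a subunit of the SAGA coactivator and Sac3 is the scaffold of TREX-2, and SAGA and TREX-2 hold circles to nuclear pores in the mother. Mitochondrial DNA is replicated apart from the cell cycle, and centromeres and telomeres are the parts of a linear chromosome that guide its segregation and protect its ends.

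The sequences that mark the regions with the clearest late behaviour are shown from the R64 reference, which the table's windows fit exactly. The rDNA origin is the element that each excised circle carries. The capitals mark its single match to the ARS consensus sequence, searched on both strands, which 0.636% of the 112808 nuclear pieces of the same length contain. It lies on chromosome XII at chrXII:458991-459097, plus strand.
ARS1200-1: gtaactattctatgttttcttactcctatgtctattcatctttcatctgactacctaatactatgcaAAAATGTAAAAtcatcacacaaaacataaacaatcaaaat

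Centromeres had lost signal at 24 h in every genotype and regained it late in 2 of them. CEN14 (chrXIV:628758-628875, plus strand) is shown as the centromere with the lowest 48 h over 24 h ratio in sac3 cells. It is an exception there, since its ratio was 0.932 before 24 h and 0.944 after it. The capitals mark the annotated protein-binding elements CDEI and CDEIII on either side of the AT-rich CDEII.
CEN14: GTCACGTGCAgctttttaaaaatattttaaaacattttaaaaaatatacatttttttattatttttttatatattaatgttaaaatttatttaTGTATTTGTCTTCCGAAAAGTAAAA

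The mitochondrial genome gained signal late in every genotype. The origin ori2 (Mito:32231-32501, plus strand) lies within the window with the highest late ratio in sac3 and wild-type cells, and ori5 (Mito:82329-82600, plus strand) within the window with the highest late ratio in spt3 cells. The capitals mark runs of 5 or more G or C, which lie in the GC clusters of these origins, and 49.7% of the 316 mitochondrial pieces of 271 bases have such a run.
ORI2: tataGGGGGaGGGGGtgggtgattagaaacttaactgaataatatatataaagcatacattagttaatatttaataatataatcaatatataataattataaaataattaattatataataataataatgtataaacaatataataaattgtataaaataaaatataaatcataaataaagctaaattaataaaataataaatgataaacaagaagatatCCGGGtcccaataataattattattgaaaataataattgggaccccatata
ORI5: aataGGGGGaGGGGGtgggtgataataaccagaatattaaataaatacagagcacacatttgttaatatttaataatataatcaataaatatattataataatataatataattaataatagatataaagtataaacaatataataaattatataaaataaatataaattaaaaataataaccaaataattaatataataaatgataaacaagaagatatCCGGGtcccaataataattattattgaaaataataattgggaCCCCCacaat

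Chromosome ends moved in opposite directions in different genotypes. The last 150 bases of the right end of chromosome III (chrIII:316471-316620, plus strand), in the nuclear region that fell most in sac3 cells, are given as an example of what such a window contains. The capitals mark the terminal run of 100 G and T bases, the telomeric repeat, and 0.0286% of the 80465 nuclear pieces of this length hold a run of 50 or more bases of this kind on either strand.
III_right_end: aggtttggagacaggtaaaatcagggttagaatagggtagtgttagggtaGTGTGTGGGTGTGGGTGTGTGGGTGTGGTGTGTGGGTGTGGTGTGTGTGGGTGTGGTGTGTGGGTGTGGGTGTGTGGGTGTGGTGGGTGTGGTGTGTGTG

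Depth, summed over a non-overlapping tiling of the genome, was 5261601 to 12147987 reads per aged library. A median full nuclear window outside chromosome XII contained between 7386 and 15965 reads, so its counting error was 0.791% to 1.16%, and this leaves out variation between cultures. The labels were checked by the step in the mutant over wild-type ratio where windows begin to hold a deleted gene. At 48 h this was 0.967 for SPT3 in spt3 cells, 0.963 for RAD52 in rad52 cells and 0.914 for SAC3 in sac3 cells, and in the mutants that keep the gene it lay between 0.982 and 1.01. Outside chromosome XII libraries of 2 genotypes stood apart from the others. In spt3 cells the SD over 2207 windows was 0.28 on the log2 scale at 24 h against log phase. In sac3 cells it was 0.32 at 48 h against 24 h. The spt3 library at 48 h kept much of the deviation of the one at 24 h. Its windows at chromosome ends had 0.760 times the median window outside chromosome XII, against 0.667 at 24 h and 0.903 at log phase. The late SD was 0.08 in spt3, 0.09 in rad52 and 0.06 in wild-type cells. Across these windows the late change in sac3 cells and the early change in spt3 cells, which have no library in common, followed each other (Pearson's r = 0.89 and Spearman's rho = 0.79, or 0.91 and 0.81 over 446 non-overlapping windows). The windows share base composition and position on the chromosome, so this is a description.

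**Figure D1:**
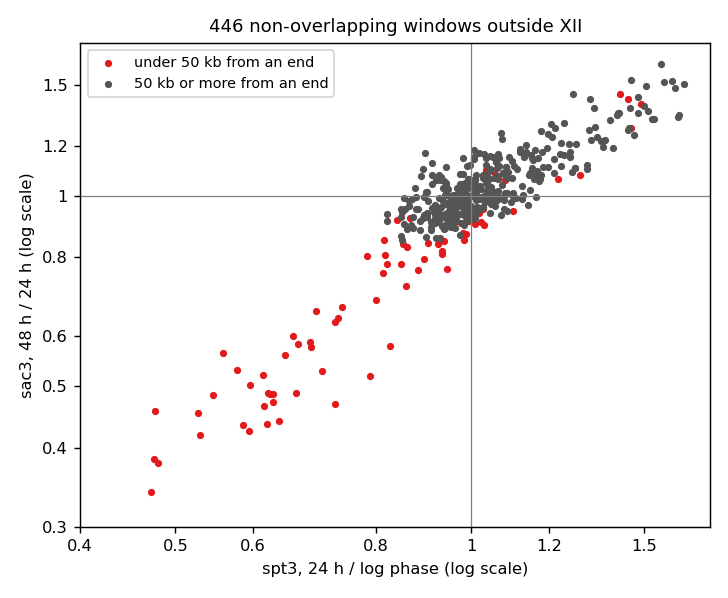
Ratio of each of 446 non-overlapping windows outside chromosome XII in sac3 cells (48 h over 24 h, y axis, log scale) and in spt3 cells (24 h over log phase, x axis, log scale), 1 library at each time. Windows under 50 kb from a chromosome end (red) reach below 0.5 in both, and r is 0.91 over all points.

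No single window passed a test of a common change over the 4 genotypes. With limma on log2(signal + 1), genotype as a block and 48 h against 24 h as the term of interest, 0 of 2441 windows (0.0%) passed an adjusted p of 0.05, where the smallest adjusted p was 0.989 and 23 windows had an unadjusted p under 0.05. Among the 2423 nuclear windows, 88 (3.63%) were higher at 48 h in all 4 genotypes and 43 (1.77%) were lower in all 4. Of the 88, 14 lay in the part of chromosome XII right of the rDNA, ChrXIIr, and 63 lay on other chromosomes. No nuclear window moved by 5% or more in the same direction in all 4 genotypes. The late changes are therefore given for each genotype, and for regions.

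Between 24 h and 48 h, 161 of 2423 nuclear windows (6.64%) were at least 1.1-fold higher and 6 (0.248%) at least 1.1-fold lower in spt3 cells. In rad52 cells these numbers were 48 (1.98%) and 179 (7.39%), in sac3 cells 582 (24.0%) and 431 (17.8%), and in wild-type cells 172 (7.10%) and 34 (1.40%). The earlier change, 24 h over log phase, had put 576 windows (23.8%) above and 445 (18.4%) below the same limits in spt3 cells, 416 (17.2%) and 111 (4.58%) in rad52, 277 (11.4%) and 74 (3.05%) in sac3, and 517 (21.3%) and 315 (13.0%) in wild-type cells. Outside chromosome XII the spread of the late log2 ratios was 0.307 times that of the early ones in spt3 cells, 0.8287 times in rad52, 3.55 times in sac3 and 0.434 times in wild-type cells. The nuclear genome thus moved less after 24 h than before it in 3 genotypes and more in sac3 cells.

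Most early changes had stopped by 24 h in spt3, rad52 and wild-type cells, and not in sac3 cells. Of the windows changed by 1.1-fold at 24 h, the spt3 cells had 1 that continued, 857 that stopped and 163 that reversed. The rad52 cells had 0 that continued, 424 that stopped and 103 that reversed, the sac3 cells had 146, 121 and 84, and the wild-type cells had 126, 700 and 6. Changes seen only late numbered 3 windows in spt3, 124 in rad52, 783 in sac3 and 74 in wild-type cells. The 24 h library enters both ratios of a genotype, above in one and below in the other, so a deviation of that library alone sorts windows into the reversed class. When the early change was taken from the mean of the other 3 genotypes, 2 windows reversed in spt3, 91 in rad52, 15 in sac3 and 0 in wild-type cells, and the number that continued was 22 in spt3, 67 in rad52, 495 in sac3 and 165 in wild-type cells. In wild-type cells the median late ratio was 1.07 in the 437 windows higher at 24 h in this mean, and 0.958 in the 181 lower ones. In sac3 cells 353 of the 498 windows (70.9%) that were higher at 24 h in this mean were at least 1.1-fold higher at 48 h than at 24 h. Of the other 3 genotypes, spt3 cells had the widest early spread outside chromosome XII, an SD of 0.28 on the log2 scale. It was 0.15 in wild-type and 0.11 in rad52 cells. There the late sac3 change followed the early spt3 change (Pearson's r = 0.89) more closely than the early wild-type change (r = 0.28).

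**Figure D2:**
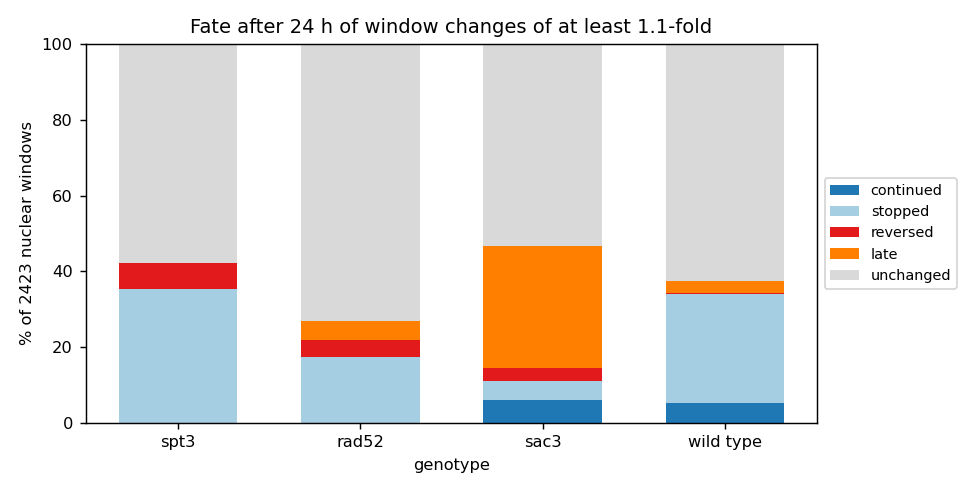
Share of the 2423 nuclear windows (y axis, percent) that continued, stopped, reversed, changed only late or stayed within 1.1-fold in each genotype (x axis), with 1 library at each time. The stopped class is the largest of the changed classes in spt3, rad52 and wild-type cells, and the class that changed only late is the largest in sac3 cells (32.3%).

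The mitochondrial genome was the one region whose early rise continued past 1.1-fold in all 4 genotypes. All 18 of its windows were at least 1.1-fold higher at 48 h than at 24 h in each genotype, and all 18 had also risen before 24 h. Its median window signal was 77748 at 48 h and 37639 at 24 h in spt3 cells, 461357 and 381284 in rad52 cells, 61330 and 44330 in sac3 cells, and 404201 and 79202 in wild-type cells. The median window ratio was 2.03 in spt3, 1.24 in rad52, 1.33 in sac3 and 5.10 in wild-type cells, a mean log2 change of 1.02 ± 0.94 (SD, n = 4 genotypes; exact sign-flip permutation test, two-sided p = 0.125, adjusted p = 0.60 over 24 regions). With 4 pairs and 16 relabellings 0.125 is the smallest p possible, so no region could pass 0.05. Wild-type cells stood well above the other 3 genotypes, and without the wild-type pair the mean was 0.58.

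The order of genotypes was not that of the earlier rise. Before 24 h the mitochondrial windows had risen 4.13-fold in spt3, 14.4-fold in rad52, 3.62-fold in sac3 and 5.38-fold in wild-type cells, so the gain slowed most in rad52 cells and hardly at all in wild type. The late minus the early change was -1.52 ± 1.46 on the log2 scale (SD, n = 4) and negative in 4 of 4 genotypes (exact sign-flip permutation p = 0.125, adjusted p = 0.43), or -0.85 without the rad52 pair. Both changes share the 24 h library, so a high 24 h signal alone lowers this difference. At 48 h the mitochondrial windows reached 6.30 times the median nuclear window in spt3 cells, 37.1 times in rad52, 4.89 times in sac3 and 32.8 times in wild-type cells. As a share of all signal, mitochondrial DNA made up 3.71% at 48 h and 1.88% at 24 h in spt3 cells, 17.5% and 14.5% in rad52, 2.99% and 2.22% in sac3, and 7.71% and 2.39% in wild-type cells.

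The late gain was not even along the mitochondrial genome. Over its 18 windows the ratio ranged from 1.78 to 2.52 in spt3, from 1.12 to 1.35 in rad52, from 1.16 to 1.68 in sac3 and from 4.72 to 5.43 in wild-type cells. The window at 30001 to 55000, which holds ori2, had the highest value in both sac3 (1.68) and wild-type cells (5.43). The highest value in spt3 cells was 2.52, in the window at 80001 to 85779 that holds ori5, and that window had 1.33 in rad52, 1.21 in sac3 and 4.74 in wild-type cells. The late gain of spt3 and rad52 cells thus leaned to the right end of the map, and that of sac3 and wild-type cells to its middle. Before 24 h the window at 80001 to 85779 had gained least in spt3 (1.66-fold) and rad52 cells (8.68-fold). The window at 30001 to 55000 had then gained 4.42-fold in spt3 and 15.4-fold in rad52 cells. Early and late ratios share the 24 h library, so the late lean is not a larger gain since log phase. By genes, sac3 cells had ratios of 1.59 at ATP6 and ATP8, subunits of the ATP synthase, 1.57 at COB, cytochrome b, 1.505 at OLI1, the ATP synthase ring subunit, and 1.503 at VAR1, a ribosomal protein. The same cells had 1.24 at COX2 and at COX3, subunits of cytochrome c oxidase, and 1.18 at the 15S rRNA gene. In spt3 cells the order was different, with 2.14 at COX3 the highest of the 10 genes and 1.84 at COX1 the lowest. All 10 genes were above 1.1-fold in all 4 genotypes. The genes share windows and are not separate measurements.

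**Figure D3:**
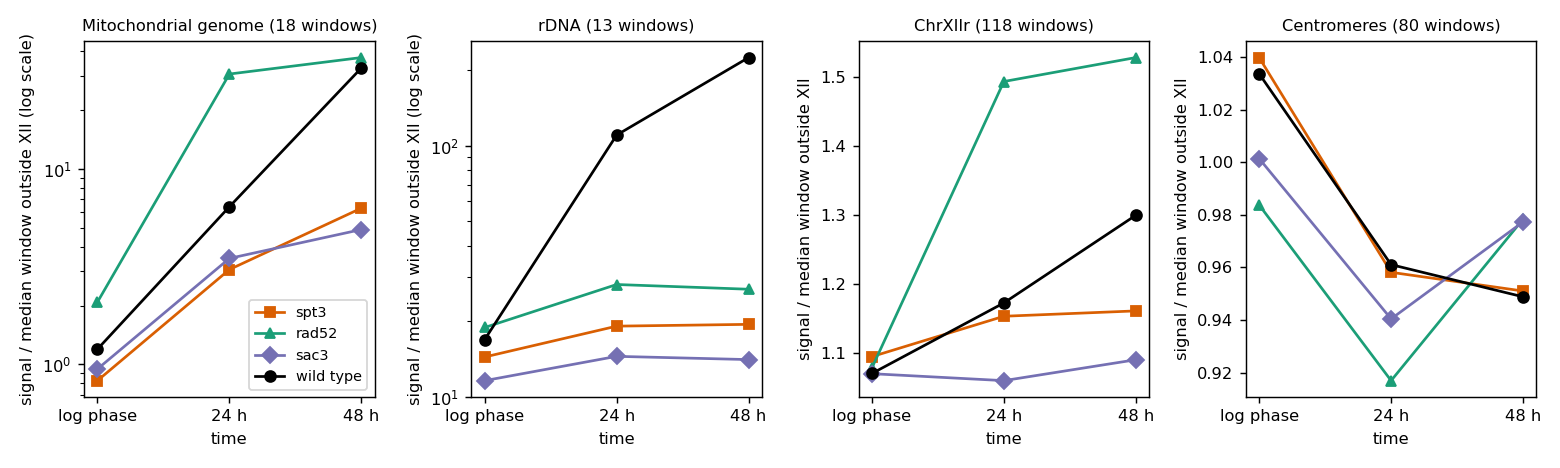
Signal relative to the median window outside chromosome XII (y axis, log scale for the 2 left panels) at log phase, 24 h and 48 h (x axis) for the mitochondrial genome, the rDNA, ChrXIIr and centromere windows, each point the median window of 1 library. Mitochondrial signal rises over both intervals in all genotypes, the rDNA rises after 24 h in wild type (black), and centromere windows rise after 24 h only in rad52 and sac3 cells among these 4 genotypes.

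The rDNA went on rising only in wild-type cells among the 4 genotypes. Its median window signal was 240001 at 48 h and 235468 at 24 h in spt3 cells, 333642 and 349672 in rad52 cells, 176263 and 184374 in sac3 cells, and 2768770 and 1365110 in wild-type cells. The ratios were 1.03 in spt3, 0.957 in rad52, 0.930 in sac3 and 2.02 in wild type. The mutant medians stayed within 1.1-fold, and the wild type lay beyond all of them. In the mutants the earlier rise, 1.28-fold in spt3, 1.48-fold in rad52 and 1.295-fold in sac3 cells, had ended by 24 h, while the wild type had risen 6.66-fold before 24 h.

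In copies of the 9137 base rDNA unit for each median nuclear window, wild-type cells held 2646 at 48 h and 1299 at 24 h. The late gain of 1347 units was larger than the 1112 gained before 24 h, although the fold change was smaller. The spt3 cells held 213 units at 48 h and 207 at 24 h, the rad52 cells 301 and 313, and the sac3 cells 148 and 160. The rDNA took 12.7% of all signal at both times in spt3 cells, 14.9% at 48 h and 15.8% at 24 h in rad52, 9.62% and 10.6% in sac3, and 59.7% and 46.7% in wild-type cells. Together with mitochondrial DNA this came to 67.4% of the wild-type library at 48 h, against 49.1% at 24 h. The mean log2 ratio of the 13 rDNA windows over genotypes was 0.22 ± 0.53 (SD, n = 4; exact sign-flip permutation p = 0.875, adjusted p = 1), with 2 genotypes higher and 2 lower. Without the wild-type pair it was -0.04.

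Within the rDNA windows the ratios differed between the inside of the array and 5 windows at its borders in sac3 and wild-type cells. The window at 445001 to 470000 had 1.03 in spt3, 0.957 in rad52, 0.913 in sac3 and 2.03 in wild-type cells. The RDN37-1 and RDN5-1 genes, which encode the large precursor and the 5S rRNA, gave 0.914 and 0.915 in sac3 cells and 2.03 in wild type. The window at 425001 to 450000, which ends before the first repeat, had 0.977 in spt3, 0.985 in rad52, 1.43 in sac3 and 1.11 in wild-type cells. The 4 windows from 470001 to 510000 had 1.03 in spt3, 0.9495 to 0.958 in rad52, 1.16 to 1.19 in sac3 and 1.86 to 1.87 in wild-type cells. Each of these 4 covers part of the rDNA stretch and sequence to its right, so repeat signal is mixed in. Their early wild-type rise was 4.02- to 4.135-fold, against 1.24-fold at 425001 to 450000. The 5 border windows were the ones of the 13 that were above 1.1-fold in sac3 cells, where 24.0% of all nuclear windows were. The 4 on the right overlap each other and are not separate measurements.

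ChrXIIr, the 118 windows that start right of the rDNA, went on rising in wild-type cells, and its median stayed within 1.03-fold in the mutants. Its median window signal was 14343 at 48 h and 14210 at 24 h in spt3 cells, 19008 and 18642 in rad52, 13668 and 13493 in sac3, and 16014 and 14511 in wild-type cells. The ratio was 1.02 in spt3, 1.01 in rad52, 1.01 in sac3 and 1.12 in wild-type cells, and every one of the 118 windows was above 1 in wild type. The rise before 24 h had been 1.06-fold in spt3, 1.41-fold in rad52, 1.03-fold in sac3 and 1.11-fold in wild-type cells. Thus rad52 cells, which had gained the most by 24 h, gained almost nothing after it, and wild-type cells gained about as much after 24 h as before.

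At least 1.1-fold higher at 48 h were 9 of the 118 windows in spt3, 0 in rad52, 29 in sac3 and 88 in wild-type cells, against 6.64% of all nuclear windows in spt3, 1.98% in rad52, 24.0% in sac3 and 7.10% in wild-type cells. In wild type 53 windows continued and 35 rose only late, where 5.20% of all nuclear windows continued and 3.05% changed only late. In rad52 cells 112 stopped and 6 reversed, where 17.5% of all nuclear windows stopped and 4.25% reversed. Of the 416 nuclear windows higher at 24 h in rad52 cells, 338 (81.25%) stopped, so stopping was the usual fate there. Over genotypes the mean log2 ratio was 0.06 ± 0.07 (SD, n = 4; 4 of 4 higher; exact sign-flip permutation p = 0.125, adjusted p = 0.60), and 0.02 without the wild-type pair. The count of 4 of 4 depended on the measure. The rad52 ratio was 0.999 from summed signals and 0.996 without Ty, LTR, ENA and CUP1 windows. The late minus the early change was -0.14 ± 0.24 (exact permutation p = 0.25, adjusted p = 0.55), or -0.02 without the rad52 pair, and its 2 parts share the 24 h library. The left arm of chromosome XII, 86 windows on the centromere side, had ratios of 1.03 in spt3, 1.01 in rad52, 1.02 in sac3 and 1.03 in wild type, a mean log2 change of 0.03 ± 0.01 that was also higher in 4 of 4 (p = 0.125, exact). This count too depended on the processing, since the sac3 ratio of the left arm was 0.987 after GC correction.

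Along ChrXIIr the wild-type ratio was broadly even. After the first window, 490001 to 515000, which lies directly beside the rDNA stretch and had 1.84, the wild type stayed between 1.07 and 1.26. It was highest in the window at 1005001 to 1030000, with a signal of 27812 at 48 h and 22160 at 24 h. The sac3 ratio was uneven, with a highest value of 1.38 in the window at 685001 to 710000 and a lowest of 0.437 in the last window, where the signal was 1317 at 48 h and 3012 at 24 h. In the 8 windows that start from 1040 kb on, the median ratio was 1.16 in spt3, 0.860 in rad52, 0.520 in sac3 and 1.16 in wild-type cells. The lowest rad52 ratio, 0.819, was that of the window at 1070001 to 1078177, with a signal of 6059 at 48 h and 7400 at 24 h.

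**Figure D4:**
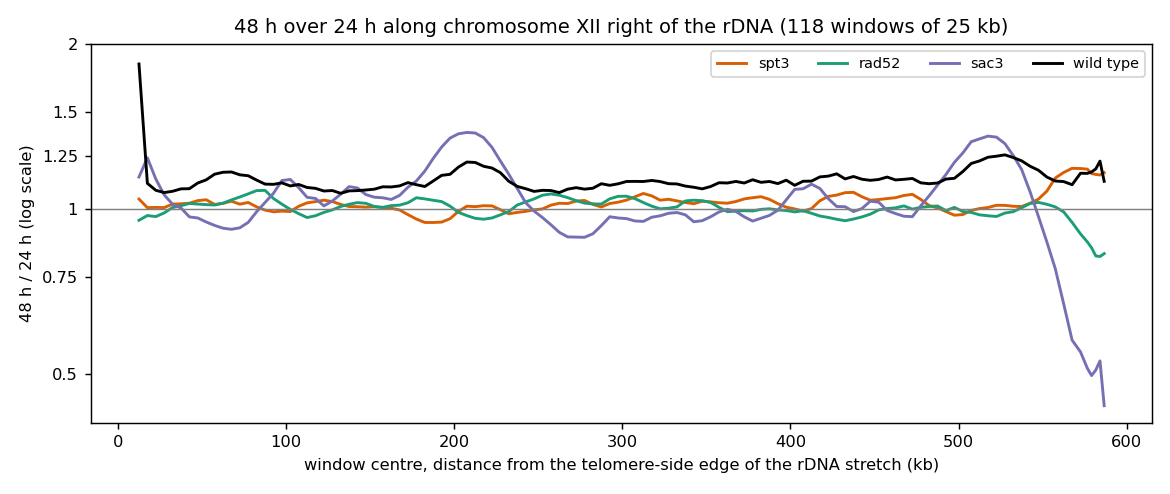
Ratio of 48 h over 24 h (y axis, log scale) of the 118 windows of 25 kb right of the rDNA on chromosome XII, by the distance of the window centre from the telomere-side edge of the rDNA stretch (x axis, kb), 1 library pair for each line. The wild type (black) lies above 1 throughout, the sac3 line rises to 1.38 and falls to 0.437 at the end, and spt3 and rad52 stay near 1 until the last 50 kb.

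Centromere windows lost signal before 24 h in all genotypes and regained it late only in rad52 and sac3 cells among the 4. The median signal of the 80 windows that hold a centromere was 11745 at 48 h and 11801 at 24 h in spt3 cells, 12171 and 11446 in rad52, 12247 and 11965 in sac3, and 11689 and 11889 in wild-type cells. The ratio was 0.995 in spt3, 1.07 in rad52, 1.07 in sac3 and 0.988 in wild-type cells. The early ratio had been 0.917 in spt3, 0.919 in rad52, 0.928 in sac3 and 0.920 in wild type. The late change was higher than the early one in 4 of 4 genotypes, by 0.16 ± 0.06 on the log2 scale (SD, n = 4; exact sign-flip permutation p = 0.125, adjusted p = 0.43). Because both changes share the 24 h library, a low 24 h signal alone raises this difference, and it does not by itself show a regain. The late change alone was 0.04 ± 0.06 (2 of 4 higher, exact p = 0.50).

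Chromosome by chromosome, the centromere was above 1 at 48 h over 24 h on 6 of 16 chromosomes in spt3, on 16 of 16 in rad52, on 11 of 16 in sac3 and on 7 of 16 in wild-type cells. In rad52 cells the values ran from 1.00 at the centromere of chromosome I to 1.13 at that of chromosome XV. In sac3 cells the lowest value was 0.944, at CEN14. Of the 31 centromere windows that had fallen by 1.1-fold at 24 h in rad52 cells, 20 stopped and 11 reversed. In sac3 cells 10 stopped and 12 reversed of 22, and in wild-type cells all 32 that had fallen stopped. Of all nuclear windows that had fallen at 24 h, 25 of 111 (22.5%) reversed in rad52 and 30 of 74 (40.5%) in sac3 cells, and 312 of 315 stopped in wild-type cells, so the wild-type centromere count follows that of the whole genome. With distance the rad52 gain was 1.06 within 12.5 kb, 1.03 from 12.5 to 25 kb and 0.993 from 25 to 37.5 kb, and the sac3 gain stayed between 1.073 and 1.096 out to 50 kb. In sac3 cells the windows just off the centromere are thus as high as those on it, and their part in the centromere value was not tested.

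The CUP1 windows also lay below 1 before 24 h and above 1 after it in all 4 genotypes. These 5 windows hold the tandem copies of the metallothionein gene CUP1, and their early ratios were 0.900 in spt3, 0.918 in rad52, 0.920 in sac3 and 0.900 in wild-type cells. Their late ratios were 1.03 in spt3, 1.07 in rad52, 1.01 in sac3 and 1.02 in wild type. The mean late change was 0.05 ± 0.04 on the log2 scale and higher in 4 of 4 (exact p = 0.125, adjusted p = 0.60), and the late minus the early change was 0.18 ± 0.03 (4 of 4, exact p = 0.125, adjusted p = 0.43). That difference also shares the 24 h library between its parts, so a low 24 h signal alone raises it. The 7 ENA windows, with the sodium pump genes, had late ratios of 0.993 in spt3, 1.049 in rad52, 0.925 in sac3 and 1.04 in wild type. The 811 windows that touch a Ty element or a long terminal repeat had late ratios between 0.996 and 1.02.

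Chromosome ends showed the widest differences between genotypes outside the rDNA and the mitochondrial genome. The median signal of the 240 windows that touch the last 25 kb of a chromosome was 9390 at 48 h and 8216 at 24 h in spt3 cells, 10673 and 11377 in rad52, 7223 and 11784 in sac3, and 10810 and 11299 in wild-type cells. The ratio was 1.15 in spt3, 0.908 in rad52, 0.605 in sac3 and 0.977 in wild-type cells. The spt3 ends had fallen to 0.722 before 24 h, and their late change ran against that fall, with the 24 h library in both ratios. The early ratios of the other genotypes were 1.015 in rad52, 1.01 in sac3 and 1.01 in wild type. The mean log2 change over genotypes was -0.18 ± 0.39 (SD, n = 4; exact p = 0.625, adjusted p = 1), 0.01 without the sac3 pair, and -0.09 without the spt3 and sac3 pairs, whose libraries stood apart.

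At least 1.1-fold higher were 154 of the 240 windows in spt3, 1 in rad52, 7 in sac3 and 27 in wild-type cells, and at least 1.1-fold lower were 2 in spt3, 123 in rad52, 221 in sac3 and 33 in wild-type cells. Of all nuclear windows, 6.64% were higher and 0.248% lower in spt3, 1.98% and 7.39% in rad52, 24.0% and 17.8% in sac3, and 7.10% and 1.40% in wild-type cells. Of the 208 end windows that were lower at 24 h in spt3 cells, 53 stopped and 154 reversed. Of all 445 nuclear windows lower at 24 h in these cells, 283 stopped and 161 (36.2%) reversed. The fall and its reversal share the spt3 library at 24 h, so a deviation of that library alone gives both. Taking the outermost full window of each of the 32 ends, the ratio was above 1 at 32 of 32 ends in spt3 cells, below 1 at 32 of 32 in rad52 and in sac3 cells, and below 1 at 20 of 32 in wild-type cells. In sac3 cells it ranged from 0.432 at the left end of chromosome XII, where the signal was 7489 at 48 h and 17330 at 24 h, to 0.974 at the right end of chromosome IV. The right end of chromosome IV was also the lowest of the spt3 values, 1.00, and it was the only end that had been above 1 before 24 h in spt3 cells, with 1.22. In rad52 cells the 32 ends lay between 0.854 and 0.951.

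The change faded with distance from the end. In full windows outside chromosome XII starting within 5 kb of an end the ratio was 1.18 in spt3, 0.880 in rad52, 0.524 in sac3 and 0.977 in wild-type cells. At 20 to 25 kb it was 1.06 in spt3, 0.969 in rad52, 0.828 in sac3 and 0.991 in wild type, and at 50 to 75 kb all 4 lay between 0.992 and 1.01. The early spt3 profile had the same shape as the late sac3 profile, 0.628 within 5 kb and 0.879 at 20 to 25 kb. Subtelomeric genes of families such as COS, PAU and the Y′ helicases have near-identical copies on several chromosomes, so reads there can be shared between ends.

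**Figure D5:**
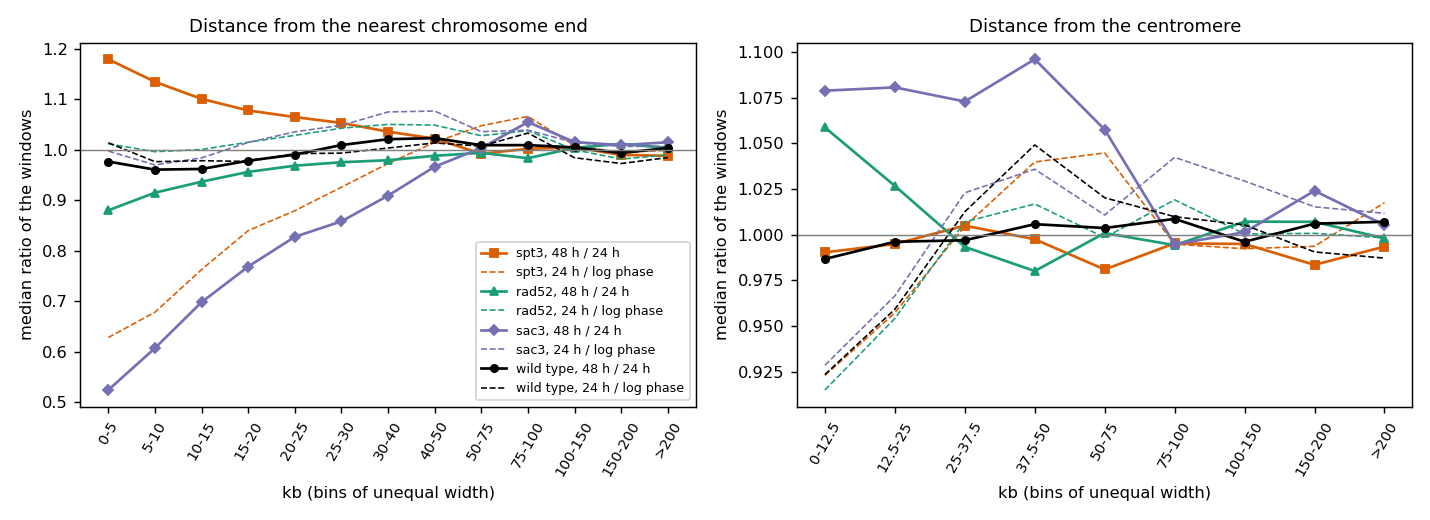
Median window ratio (y axis) by distance from the nearest chromosome end (left) and from the centromere (right; windows under 50 kb from an end left out), in kb bins of unequal width (x axis), for full windows outside chromosome XII. Solid lines are 48 h over 24 h and dashed lines 24 h over log phase, with 1 library at each time. The late sac3 line falls to 0.524 at the ends, the late spt3 line rises to 1.18, and near centromeres the late rad52 and sac3 lines lie above 1 where all early lines lie below it.

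Whole chromosomes other than XII moved little after 24 h except in sac3 cells. The 15 chromosome medians lay between 0.976 (X) and 1.0498 (III) in spt3, between 0.944 (I) and 1.02 (IX) in rad52, between 0.940 (III) and 1.12 (I) in sac3, and between 0.984 (XI) and 1.02 (XVI) in wild-type cells. Chromosomes I and VI, the smallest, had risen before 24 h in all 4 genotypes. After 24 h their ratios were 1.01 and 0.992 in spt3 cells, 0.944 and 0.964 in rad52, 1.12 and 1.11 in sac3, and 1.01 and 1.00 in wild type. The sac3 values depended on which windows were taken, since without Ty, LTR, ENA and CUP1 windows they were 0.977 for chromosome I and 0.936 for chromosome VI. Of the 32 windows left on VI, 46.9% touched the last 25 kb, and in the 17 of them further inside the sac3 ratio was 0.999. On chromosome I the 18 such inner windows had 1.09. Chromosome XVI was higher in 4 of 4 genotypes, with 1.01 in spt3, 1.01 in rad52, 1.08 in sac3 and 1.02 in wild-type cells, a mean log2 change of 0.04 ± 0.05 (exact p = 0.125, adjusted p = 0.60). In sac3 cells it was already 1.06 times the median window outside chromosome XII at log phase, then 1.13 at 24 h and 1.16 at 48 h. The log phase values of the other genotypes were 0.996 in spt3, 0.985 in rad52 and 0.980 in wild type.

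Away from ends and the rDNA, sac3 cells had 266 of 2170 windows at least 1.2-fold higher at 48 h and 31 at least 1.2-fold lower. The 266 formed 29 stretches of at least 3 overlapping windows, on 12 chromosomes, and had a median ratio of 1.33. The same limits were passed upward by 1 window in spt3, 0 in rad52 and 10 in wild-type cells, and downward by none in these 3 genotypes. Over 1982 inner windows outside chromosome XII, the late sac3 log2 ratio and the mean log phase signal of the 4 genotypes had r = 0.54, and the late rad52 ratio and the same signal had r = -0.77. The values were 0.06 in spt3 and 0.12 in wild-type cells. The fifth of windows with the highest log phase signal had a median ratio of 1.15 in sac3 and 0.935 in rad52 cells, and the fifth with the lowest had 0.972 in sac3 and 1.0503 in rad52. The late rad52 change also ran against the early wild-type change (r = -0.88 over these windows, no library in common). These correlations are across overlapping windows, which are not replicates and share base composition. GC content itself had r = -0.35 with the late change in rad52, 0.25 in spt3, -0.02 in sac3 and 0.04 in wild-type cells, and coding content and the number of origins had correlations no larger than 0.20 in size.

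Single stretches outside chromosome XII were named by their rank in each genotype. In sac3 cells the highest was chrXI:260001-305000, with 23 protein-coding genes from CWP1, a cell wall mannoprotein, to STB6, among them MDH1, the mitochondrial malate dehydrogenase, TEF4, a translation elongation factor, and VMA5, a vacuolar ATPase subunit. The median signal there was 30137 at 48 h and 18385 at 24 h in sac3 cells, a ratio of 1.62. It was 26065 and 26540 in spt3 cells, 18411 and 20310 in rad52, and 25450 and 22865 in wild-type cells, with ratios of 0.978 in spt3, 0.912 in rad52 and 1.103 in wild type. By 24 h this stretch had already risen 1.56-fold in spt3 and 1.31-fold in wild-type cells.

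The lowest stretch in sac3 cells was the right end of chromosome III, chrIII:300001-316620, with 9 genes from YCR099C to YCR108C, among them ADH7, an alcohol dehydrogenase, and PAU3 of the seripauperin family. Its signal was 1535 at 48 h and 4265 at 24 h, a ratio of 0.355, and in spt3 cells it was 2752 and 1995, a ratio of 1.37. The highest stretch in spt3 cells was also an end, chrIX:415001-439888, with 10 genes from DAL3 to YIR042C, among them LYS1 of lysine synthesis, HYR1, a peroxidase, and GTT1, a glutathione transferase. The ratio there was 1.38 in spt3 and 0.378 in sac3 cells, and the early ratio had been 0.480 in spt3 and 1.02 in sac3 cells. The lowest in spt3 cells was chrX:660001-700000, with 16 genes from YJR128W to YJR142W, among them HOM6 of threonine synthesis and MET5 of sulphite reduction. Its ratio was 0.908 in spt3 and 1.17 in sac3 cells.

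In rad52 cells the highest stretch was chrIX:330001-365000, which spans the centromere of chromosome IX and has 18 genes from YIL012W to DJP1, among them EST3, a telomerase subunit, URM1, a ubiquitin-like modifier, and BET1, a SNARE. Its signal was 11879 at 48 h and 10395 at 24 h in rad52 cells, a ratio of 1.14, after 0.926 before 24 h. The other genotypes had 0.990 (spt3), 0.995 (sac3) and 1.02 (wild type). The lowest was the right end of chromosome X, chrX:730001-745751, with 4 genes, HXT16, a hexose transporter, SOR1, a sorbitol dehydrogenase, MPH3, a maltose permease, and COS5. Its ratio was 0.765 in rad52 and 0.478 in sac3 cells. In wild-type cells both extremes lay at ends. The highest was chrXV:1080001-1091291, with 4 genes from ERR1 to YRF1-8 and a ratio of 1.19, and the lowest was chrVI:260001-270161, with IRC7 and YFR057W and a ratio of 0.8286.

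Genes that act in rDNA silencing, recombination, fork repair and circle retention were read from the windows that hold them. Of the 33 genes, 0 were at least 1.1-fold higher and 0 at least 1.1-fold lower in spt3 and in wild-type cells, where 6.64% and 0.248% and, in wild type, 7.10% and 1.40% of all nuclear windows passed. In rad52 cells 1 was higher and 1 lower, namely TOP1, DNA topoisomerase I, with 1.12, and MUS81, a nuclease subunit, with 0.907, where 1.98% of all nuclear windows were higher and 7.39% lower. In sac3 cells 6 of the 33 were higher and 2 lower, where 24.0% of all nuclear windows were higher and 17.8% lower. The difference between the list and the genome was not tested. A gene's value is a median of several windows, and 221 of the 240 windows at chromosome ends were among the lower ones. The 6 included CDC14, the phosphatase of mitotic exit, with 1.40, HFI1, the SAGA subunit also called Ada1, with 1.16, CTF4 with 1.12, HST4 with 1.12 and RAD57 with 1.11. The 2 were SPT20 with 0.820 and GCN5, the SAGA acetyltransferase, with 0.871. The medians over the list were 0.986 in spt3, 1.02 in rad52, 1.02 in sac3 and 0.997 in wild-type cells. SIR2, the rDNA silencing deacetylase, had 0.966 in spt3, 1.02 in rad52, 1.01 in sac3 and 0.993 in wild type, and FOB1, the replication fork block protein, had 0.987 in spt3, 1.01 in rad52, 1.04 in sac3 and 1.04 in wild-type cells.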

How the data were processed

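The deposited table holds, per the file headers, 1 column of read signal for each of the 12 libraries in 25 kb windows. The methods state that single-end reads were trimmed with Trim Galore and aligned with Bowtie 2 to R64-1-1, and the authors then counted reads per window and divided each library by a size factor to give the signal. The submitters' processing notes list Trim Galore 0.6.6 and HISAT2 2.1.0, so the aligner of this table is not settled. The methods exclude Ty, LTR, mitochondrial, ENA and CUP1 windows, but the table still holds them, 811 with a Ty element or LTR and 12 with ENA or CUP1. Values were whole multiples of a step in at least 99.9% of windows (tolerance 0.1), taken as 1 read and used for depth only, since too few values are low for reads to be recovered with certainty.

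A region's value was the median of its window ratios of the deposited signal. The rDNA stretch was taken as positions 450000 to 490000 of chromosome XII, and 1.1-fold in either direction set the classes. The exact sign-flip permutation test over the 4 genotypes was two-sided, with Benjamini-Hochberg adjustment over 24 regions. Windows were tested with limma 3.58.1 (R 4.3.3) on log2(signal + 1), which was checked on simulated data. The remaining work was done in Python 3.11.15, with pandas 2.3.3 for tables, numpy 2.4.6 for ratios and matplotlib 3.10.9 for the plots. Stretches were named where at least 3 overlapping windows lay above the 99th or below the 1st percentile of a genotype, by the highest and the lowest median ratio, and genes were named as the first, the last and up to 3 others. The regions, gene lists and tests were chosen with earlier results of these data known. With 1 library for each genotype and time, p-values measure only the spread between genotypes. Values of some items are not reported here.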

Additional observations from a re-analysis of the deposited data

Results flagged for a closer look

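The regions were examined for a genotype that stands apart from the other 3 in its 48 h over 24 h ratio, by the gap to the nearest value as a share of the whole range (Dixon's test). Wild-type cells did so in 3 of 24 regions. They had 1.12 in ChrXIIr, 2.02 in the rDNA and 1.01 on chromosome II, where all 4 values lie between 0.997 and 1.01. Chance marks about 1 in 20 groups.

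Chromosome ends moved past 1.1-fold in opposite directions, with 1.15 in spt3 cells and 0.605 in sac3 cells as the highest and lowest medians. This difference was not tested, since each genotype has 1 library at each time.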

How the results depend on the processing

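The count of windows called by limma was 0 in all 13 alternatives, which were 12 libraries, a pseudocount of 100, full windows with a signal of at least 1000, re-centring, GC correction, removal of Ty, LTR, ENA and CUP1 windows, non-overlapping windows, a random genotype block, a trended robust prior and the removal of each genotype pair. The direction of the mean changes in ChrXIIr, the mitochondrial genome and centromere windows held in every alternative run. Leaving out 1 genotype pair at a time, the mean log2 change ranged from 0.02 to 0.07 in ChrXIIr, from 0.58 to 1.26 in the mitochondrial genome, from 0.02 to 0.06 in centromere windows, from -0.041 to 0.33 in the rDNA and from -0.30 to 0.0074 at chromosome ends. The rDNA reversed without the wild-type pair (-0.041) and the ends reversed without the sac3 pair (0.0074). The side of 1 on which the rDNA ratio of the mutants lay also depended on the processing. In sac3 cells it was 0.930, but 1.08 after GC correction, 1.04 as a mean of window ratios and 1.03 without Ty, LTR, ENA and CUP1 windows. GC correction moved it from 0.957 to 1.01 in rad52 and from 1.03 to 0.993 in spt3 cells. In sac3 cells chromosomes I and VI reversed without Ty, LTR, ENA and CUP1 windows, to 0.977 and 0.936.

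Class sizes depended on the threshold. The mean number of windows per genotype that continued was 68.3, against 197 at a 5% change, 7.25 at 1.2-fold and 187 with the early change from the other 3 genotypes, and it ranged from 42.3 to 91.0 without 1 pair. The number that stopped was 526, against 222 at 1.2-fold and 330 without Ty, LTR, ENA and CUP1 windows (415 to 660 without 1 pair). The number that reversed was 89.0, against 365 at a 5% change, 19.0 at 1.2-fold, 58.0 after GC correction and 27.0 with the early change from the other 3 genotypes (64.3 to 117 without 1 pair). The number changed only late was 246, against 133 at 1.2-fold and 158 without Ty, LTR, ENA and CUP1 windows (67.0 to 327 without 1 pair), and the number unchanged was 1494, against 719 at a 5% change (1402 to 1563). Chosen after seeing the data, removal of the spt3 and sac3 pairs gave 54.5 reversed and 99 late windows and a mean of 1.33 in the mitochondrial genome, 0.48 in the rDNA and 0.09 in ChrXIIr, and removal of windows within 25 kb of an end gave 35.3 reversed windows. The cause was not tested. GC correction could not be applied to the mitochondrial genome, and no value was left for CUP1 windows once they were removed. Libraries were paired by genotype in every test, and the labels give no replicate numbers that could pair them otherwise.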
